A study of Mus musculus with 38 samples.

Results

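Mouse embryonic stem cells were treated with BRM014 for 1 h, the compound was washed out, and RNA was collected 30 min or 1 h later. The washout experiment consists of 8 of the 38 RNA libraries of the series, in 4 groups of 2, chosen by their labels: washout 30 min, washout 1 h, BRM014 1 h (the end of the treatment, 10 uM) and DMSO 1 h (vehicle, the untreated level). All 8 libraries come from experimental batch 2450 and from wild-type cells of 129S6/SvEvTac background kept in serum and leukemia inhibitory factor (LIF) on gelatin. Both compounds of the series were supplied in DMSO, so the treated cells received that solvent too. The washed cells had 60 min of compound followed by 30 or 60 min without it, so they were also in culture longer after the first addition than the cells of BRM014 1 h. For the washout groups no dose and no wash protocol are stated, and there is no vehicle culture that was washed. An effect of losing the compound, an effect of exchanging the medium and an effect of time therefore cannot be told apart in these comparisons.

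BRM014 blocks the ATPases BRG1 and BRM, which drive the SWI/SNF (BAF) chromatin remodellers. These complexes slide and evict nucleosomes and keep enhancers and promoters accessible to transcription factors. In mouse embryonic stem cells they help maintain the pluripotency network and its enhancers. Washout of an inhibitor asks how fast transcripts recover once the motor can work again. On this time scale the transcripts that can follow are those that turn over quickly, such as feedback genes of the ERK and LIF pathways and the immediate early genes, which are induced by growth factors or stress without new protein synthesis.

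Levels are given as CPM, read counts scaled to a common effective library size, for replicate 1 and replicate 2 in that order. CPM are not divided by gene length, so levels are compared between groups for 1 gene and not between genes. Fold changes are log2 ± standard error from edgeR's quasi-likelihood test over 12517 genes, and a gene was called at a Benjamini-Hochberg adjusted p under 0.05. The 8 libraries held 21024210 to 23053021 counts, with 15118 to 15730 genes detected. At this depth the 95% interval of a comparison of 2 against 2 libraries spanned a median of ± 0.15 log2 for the 5275 genes with a mean log2 CPM of at least 5. The labels do not say from which cultures or days the replicates came, and the p-values rest on a spread between libraries that may be technical in part. Replicate 2 of washout 30 min stood apart: on the first principal component of the 8 libraries (41.6% of the variance) it scored 12.1, against -8.02 for replicate 2 of BRM014 1 h at the other end and -2.50 to 1.95 for the other 6. Counts of genes and of list members that change without it are therefore given without it too, or are said to depend on it. Smarca4, which encodes BRG1, is listed at 0 in every library, as are 6709 of 21897 protein-coding genes, and nothing can be said of its level. Smarca2, which encodes BRM, had 19.3 and 17.5 CPM at washout 30 min, 22.5 and 19.98 at washout 1 h, 13.4 and 14.7 at BRM014 1 h and 15.96 and 13.7 in DMSO. It was called at washout 1 h against BRM014 1 h (0.60 ± 0.13, adjusted p = 0.0046). Each call was refitted 4 times, leaving out 1 library of the 2 groups compared, and this one held in 2 of the 4 fits.

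Within 30 min of washout 738 of 12517 genes (5.9%) differed from the end of the treatment, 361 higher (2.88%) and 377 lower (3.01%). After 1 h of washout 498 genes (3.98%) did, 378 higher (3.02%) and 120 lower (0.959%). Most changes were small: 20 genes were at least 2-fold higher and 35 at least 2-fold lower at 30 min, and 21 and 15 at 1 h. Without replicate 2 of washout 30 min the 2-fold counts at 30 min were 5 and 8, and at 1 h the fits that left out a library gave 10 to 27 and 2 to 21. Among the named rises were the early response genes Atf3 and Fos and the YAP targets Ccn1 and F3. The ERK feedback genes Dusp6 and Spry4 and the stress gene Chac1 were among the named falls. The keratin gene Krt8, a marker, and the laminin gene Lama1, picked after its values were seen, were higher too. Against DMSO, 671 genes (5.36%) differed at washout 30 min, 336 higher (2.68%) and 335 lower (2.68%). Without replicate 2 of washout 30 min there were 166, 115 higher and 51 lower, and without replicate 2 of DMSO 163. At washout 1 h 1014 genes (8.1%) differed from DMSO, 620 higher (4.95%) and 394 lower (3.15%), and 345 to 899 when a library was left out. By comparison 75 genes (0.599%) differed between BRM014 1 h and DMSO, 27 higher (0.216%) and 48 lower (0.383%), and 17 to 45 when a library was left out. The washed cells thus stood further from DMSO, in number of genes called, than the treated cells they came from. Against BRM014 1 h the count at 30 min was 162 without replicate 2 of washout 30 min (122 higher and 40 lower) and 187 without replicate 2 of BRM014 1 h, and that at 1 h was 229 without replicate 2 of washout 1 h. The 377 genes lower at 30 min had a median exonic width of 5695 bases, against 3366 bases for the 361 higher genes and 3783 bases for all genes tested, and the part of this in the result was not tested.

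The cells carried the markers of their label: the sum of 8 embryonic stem cell markers, among them Pou5f1, Nanog, Zfp42 and Esrrb, was 5441 to 5702 CPM at washout 30 min, 5289 to 5436 at washout 1 h, 5361 to 5508 at BRM014 1 h and 5454 to 5498 in DMSO. Of 13 naive and 11 core pluripotency genes tested, none was called by edgeR in either washout comparison with BRM014 1 h. The share called of all genes was 5.9% at 30 min and 3.98% at 1 h. An unadjusted p under 0.05 was found for 3 naive and 2 core genes at 30 min and for 4 naive and 1 core gene at 1 h, and DESeq2 called 1 naive gene at 30 min and 2 at 1 h. Nanog, the gate-keeper of naive pluripotency, had 441 and 402 CPM at washout 30 min, 452 and 490.2 at washout 1 h, 454 and 499 at BRM014 1 h and 454 and 449 in DMSO. Both libraries of washout 30 min were below the rest, by a difference from BRM014 1 h that did not pass the test (-0.18 ± 0.07, adjusted p = 0.107).

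Markers of another cell type moved with the washout. Primitive endoderm, an extraembryonic lineage that arises at low frequency in cultures with serum, is marked here by 7 genes, of which Pdgfra is at 0 in every library. Their summed level was 290 to 309 CPM at washout 30 min and 336 to 359 at washout 1 h, against 219.5 to 222.0 at BRM014 1 h and 239.6 to 250.9 in DMSO, so all 4 washed libraries lay above the other 4. Against BRM014 1 h, 4 of the 6 markers tested were higher at washout 30 min (3 without its replicate 2) and 5 of 6 at washout 1 h (3 to 4 when a library was left out), and none was lower. Over all genes the shares higher were 2.88% at 30 min and 3.02% at 1 h. Gata6, a factor that specifies this lineage, had 57.2 and 59.2 CPM at washout 30 min, 61.9 and 73.2 at washout 1 h, 37.3 and 42.8 at BRM014 1 h and 42.1 and 42.1 in DMSO. It was higher than at BRM014 1 h by 0.54 ± 0.09 at 30 min (adjusted p = 6.34e-04) and by 0.75 ± 0.09 at 1 h (adjusted p = 3.31e-06). Gata4, its partner factor, had 96.9 and 83.6 CPM at washout 30 min, 103 and 107 at washout 1 h, 68.3 and 65.2 at BRM014 1 h and 73.4 and 76.7 in DMSO. Dab2, an endocytic adaptor needed to sort endoderm cells, had 91.4 and 78.9 CPM at washout 30 min, 103 and 98.05 at washout 1 h, 63.3 and 64.8 at BRM014 1 h and 67.5 and 68.6 in DMSO. For all 3 genes the washed libraries lay above the unwashed ones. In bulk RNA such as this, a larger share of cells of a type and more RNA per cell cannot be told apart.

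Of 5 basement membrane genes, products of this lineage, 4 were higher too. They were picked after their values were seen, so their number supports nothing. Lama1, the laminin alpha 1 chain, had 3223 and 2966 CPM at washout 30 min, 3320.3 and 3137 at washout 1 h, 1960.2 and 1934 at BRM014 1 h and 2038 and 2091 in DMSO. The 4 washed libraries were above the 4 unwashed ones with no overlap (0.67 ± 0.09, adjusted p = 1.10e-04, at 30 min; 0.73 ± 0.09, adjusted p = 2.49e-05, at 1 h). Lamb1, Col4a2 and Sparc were higher than at BRM014 1 h by 0.49 ± 0.07, 0.50 ± 0.07 and 0.44 ± 0.06 at 30 min. Nid1, the linker protein nidogen, did not pass the test against BRM014 1 h (-0.07 ± 0.09, adjusted p = 0.688, at 30 min; 0.15 ± 0.09, adjusted p = 0.445, at 1 h). Among trophectoderm markers Gata3 is at 0 and Cdx2 and Elf5 stayed at or below 1.52 CPM in all 8 libraries. Eomes, a factor of that list, had 5.85 and 5.31 CPM at washout 30 min and 5.40 and 8.23 at washout 1 h. It did not pass the test against BRM014 1 h at 30 min (-0.03 ± 0.17, adjusted p = 0.943) or at 1 h (0.26 ± 0.17, adjusted p = 0.476). The simple epithelial keratins Krt8 and Krt18 were higher. Krt8 had 204 and 233 CPM at washout 30 min, 215 and 202 at washout 1 h, 143 and 125 at BRM014 1 h and 140.2 and 145 in DMSO (0.70 ± 0.08, adjusted p = 9.05e-07, at 30 min). For comparison, the summed level of 7 fibroblast markers, of which Col1a2, Col3a1 and Lum are at 0 in these 8 libraries, was 15.7 to 18.6 CPM at washout 30 min, 15.3 to 16.2 at washout 1 h, 14.07 to 15.8 at BRM014 1 h and 14.7 to 17.1 in DMSO. Within that sum Col1a1, a collagen chain, was higher at washout 1 h, with 3.98 and 4.74 CPM against 1.71 and 1.59 CPM at washout 30 min, 1.72 and 2.19 at BRM014 1 h and 2.25 and 1.66 in DMSO (1.15 ± 0.32, adjusted p = 0.0353, against BRM014 1 h). What part the endoderm and keratin genes' shift has in the other rises after washout was not tested.

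**Figure D1:**
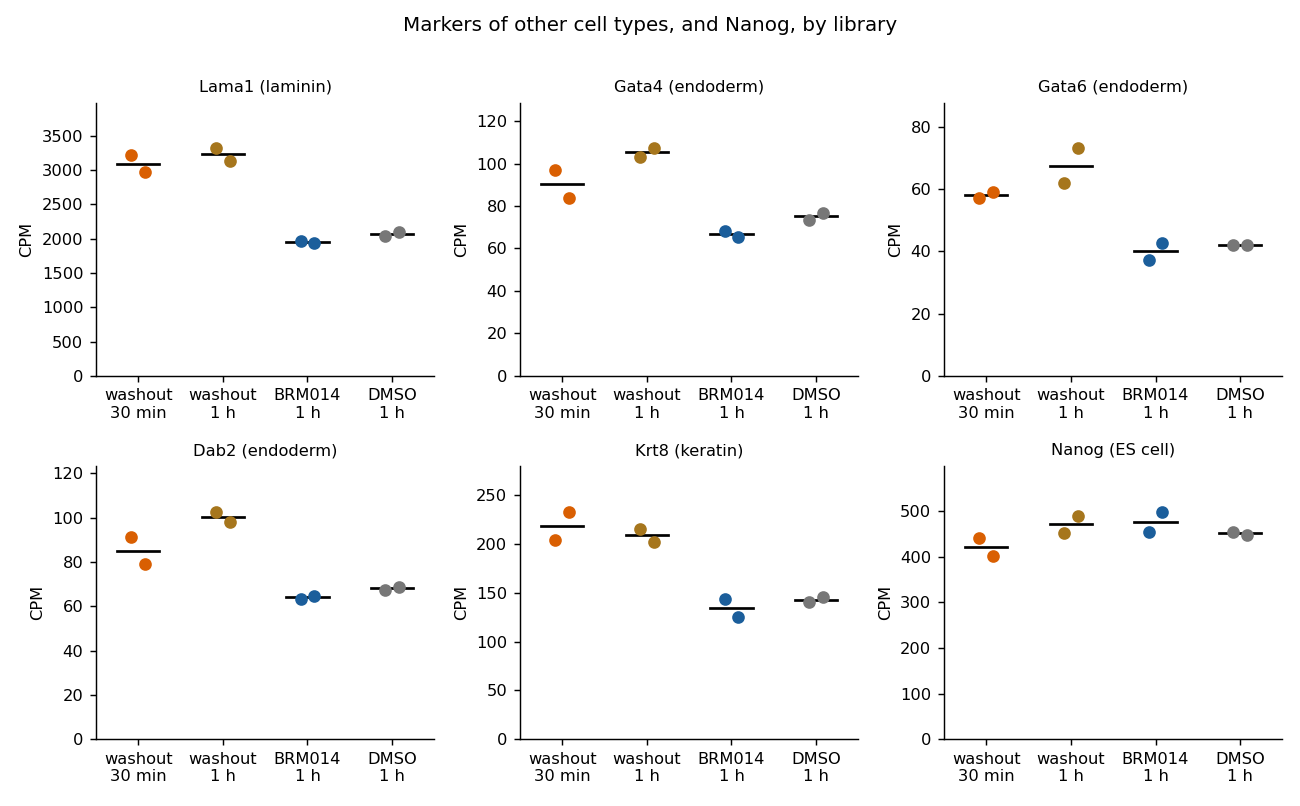
CPM (y axis) of the laminin Lama1, the endoderm genes Gata4, Gata6 and Dab2, the keratin Krt8 and the stem cell gene Nanog in each of 2 libraries per group (points; lines are means). The first 5 genes are higher in both washout groups than in BRM014 1 h and DMSO, as for Lama1 with 2966 to 3320 CPM in washed cells and 1934 to 2091 CPM in the others, while Nanog lies between 402 and 499 CPM in all 8 libraries.

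Some immediate early genes were higher after washout. Like the other gene lists, this one was chosen with earlier results of these data known, so its counts are a description only. Of 28 listed genes 8 are at 0 and 20 were tested. At washout 30 min 3 were higher than at BRM014 1 h (Klf6, Fos and Atf3) and 1, Myc, was lower, against 2.88% and 3.01% of all genes. Without replicate 2 of washout 30 min 3 were higher and none lower. At washout 1 h 10 were higher (Klf6, Fosb, Btg2, Fos, Arc, Atf3, Nr4a2, Fosl2, Egr2 and Maff) and again Myc was lower, against 3.02% and 0.959% of all genes. In the direct comparison of the washout times 1 of the 20, Arc, was higher at 1 h and none lower, where 0.791% of all genes were higher. The list's median log2 fold change was 0.17 at 30 min and 0.39 at 1 h, against -0.0034 and -0.0066 for all genes tested. Against DMSO 5 and 10 of the 20 were higher and none lower, where 2.68% and 4.95% of all genes were higher. Leaving out 1 library at a time gave 5 to 7 higher members at washout 1 h against BRM014 1 h and 7 to 8 against DMSO.

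Atf3, a stress-induced repressor of the ATF/CREB family, was the largest of the named rises at both times. It had 84.6 and 86.7 CPM at washout 30 min, 77.4 and 85.04 at washout 1 h, 37.8 and 37.8 at BRM014 1 h and 26.1 and 26.7 in DMSO. It was already higher at BRM014 1 h than in DMSO (0.52 ± 0.09, adjusted p = 0.00261, held in 1 of 4 fits), and it was higher again after washing, by 1.18 ± 0.09 at 30 min (adjusted p = 8.44e-10) and by 1.10 ± 0.09 at 1 h (adjusted p = 4.41e-09). Cells that were left in BRM014 for 3 h without washing had 77.9 and 80.3 CPM, within the range of the washed cells, so a level this high was also reached without a wash. Fos, a subunit of AP-1, had 12.4 and 10.6 CPM at washout 30 min, 12.2 and 13.3 at washout 1 h, 6.78 and 5.89 at BRM014 1 h and 3.57 and 3.63 in DMSO. All 4 washed libraries lay above the others (0.86 ± 0.15, adjusted p = 6.07e-04, at 30 min; 1.01 ± 0.15, adjusted p = 3.89e-05, at 1 h), and above BRM014 3 h with 5.32 and 5.48 CPM. Fos at BRM014 1 h exceeded DMSO by 0.81 ± 0.17, adjusted p = 0.0176, a call that held in none of the 4 fits. The inactive analog for 1 h gave 5.64 and 7.25 CPM of Fos, like BRM014 1 h, and 28.6 and 28.6 CPM of Atf3, close to DMSO. Klf6, a zinc finger factor of the early response, had 202 and 199.8 CPM at washout 30 min, 205 and 211 at washout 1 h, 145 and 149 at BRM014 1 h and 131 and 126 in DMSO. Its level after 3 h in BRM014 was 189.6 and 193 CPM. At 3 h in the compound Atf3 and Klf6 were thus near the washed level and Fos was not.

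Arc, known from synapses as an activity-induced gene, separated the washout times. It had 74.6 and 63.9 CPM at washout 1 h, 44.9 and 50.1 at washout 30 min, 52.3 and 48.2 at BRM014 1 h and 49.4 and 50.95 in DMSO. It was higher at 1 h than at 30 min by 0.54 ± 0.08, adjusted p = 8.01e-04. The inactive analog for 1 h, with no wash, had 72.6 and 72.96 CPM of Arc, at the level of washout 1 h. Fosl2, another AP-1 subunit, had 14.3 and 16.2 CPM at washout 1 h, 11.5 and 11.4 at washout 30 min, 10.3 and 11.1 at BRM014 1 h and 8.73 and 8.45 in DMSO. Myc, the growth regulator, had 163 and 122 CPM at washout 30 min, 153 and 140.2 at washout 1 h, 189 and 196 at BRM014 1 h and 161 and 154 in DMSO. It was lower than at BRM014 1 h (-0.44 ± 0.10, adjusted p = 0.00938, at 30 min) but its difference from DMSO did not pass the test (adjusted p = 0.417). Its call held in 2 of the 4 fits.

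**Figure D2:**
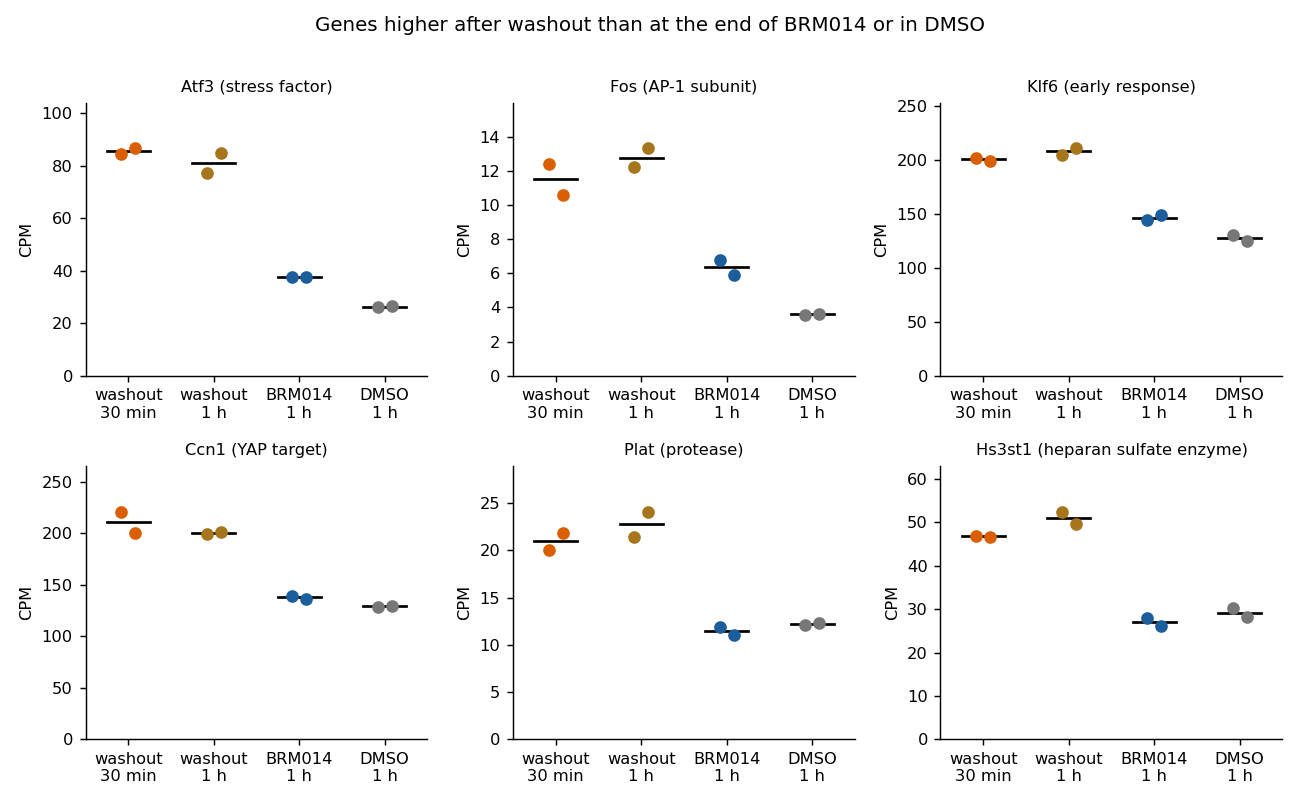
CPM (y axis) of 6 genes in each of 2 libraries per group (points; lines are means): Atf3, Fos, Klf6, Ccn1, Plat and Hs3st1. All 4 washed libraries lie above the 4 unwashed ones for each gene, as for Ccn1 with 199 to 221 CPM against 129 to 139 CPM.

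Some targets of YAP and TEAD and of the actin-regulated factor SRF were higher within 30 min and at 1 h. Of 8 YAP and TEAD targets tested 4 were higher than at BRM014 1 h at both times (Ccn1, Ccn2, Ankrd1 and F3), and Vgll3 was lower at 30 min, though not without replicate 2 of washout 30 min. Over all genes 2.88% were higher and 3.01% lower at 30 min, and 3.02% were higher at 1 h. The median of the 8 was 0.31 at 30 min and 0.42 at 1 h. Ccn1, a matricellular protein, had 221 and 200.3 CPM at washout 30 min, 199 and 201 at washout 1 h, 139 and 136 at BRM014 1 h and 129 and 129.6 in DMSO (0.61 ± 0.06, adjusted p = 2.44e-07, at 30 min). F3, the tissue factor that starts coagulation, had 138 and 126 CPM at washout 30 min, 131 and 138 at washout 1 h, 81.9 and 80.9 at BRM014 1 h and 82.3 and 76.4 in DMSO (0.69 ± 0.08, adjusted p = 1.96e-06, at 30 min). Both genes were also high at 3 h of BRM014 without washing, with 191 and 182 CPM of Ccn1 and 124 and 129 CPM of F3. Ankrd1, an ankyrin repeat cofactor, was not: it had 30.9 and 30.2 CPM at washout 30 min and 22.4 and 25.98 at washout 1 h, against 18.7 and 20 at BRM014 3 h, 16.1 and 19.3 at BRM014 1 h and 21.1 and 18.6 in DMSO. Of 14 cytoskeletal SRF targets 4 were higher and none lower at each time, where 2.88% of all genes were higher at 30 min and 3.02% at 1 h, with medians of 0.21 at 30 min and 0.23 at 1 h. Without replicate 2 of washout 30 min 2 were called at 30 min, and at 1 h the fits that left out a library gave 2 to 3. Tpm4, a tropomyosin, had 262 and 274 CPM at washout 30 min, 259 and 282 at washout 1 h, 186 and 195 at BRM014 1 h and 199 and 193 in DMSO. It was called in each of the 4 fits that left out a library (0.49 ± 0.06, adjusted p = 7.07e-06, at 30 min). Fhl2, an actin-linked LIM cofactor, had 16.4 and 15.5 CPM at washout 30 min, 13.9 and 16.2 at washout 1 h, 7.76 and 9.94 at BRM014 1 h and 13.05 and 11.2 in DMSO (0.85 ± 0.14, adjusted p = 2.00e-04, at 30 min). Fhl2 was thus lowest at the end of BRM014, and its DMSO level lay between the treated and the washed cells.

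The promoters of 4 genes on which these results turn are shown, as 250 bases before a RefSeq start site on build GRCm38.p6, 5′ to 3′ on the gene's strand. Capitals mark a match to 1 of 4 motifs searched on both strands: the CArG box (the SRF site, CC and GG around 6 A or T bases), the CRE TGACGTCA, the AP-1 site TGANTCA and the EGR site GCGNGGGCG. Atf3 is shown for the largest rise at 30 min, Fhl2 as the named rise at 30 min with a match, and Fgf4 and Nfkbid because both were lower at BRM014 1 h than in DMSO and higher at washout 1 h than at washout 30 min.
Atf3, chr1:191183334-191183583, minus strand: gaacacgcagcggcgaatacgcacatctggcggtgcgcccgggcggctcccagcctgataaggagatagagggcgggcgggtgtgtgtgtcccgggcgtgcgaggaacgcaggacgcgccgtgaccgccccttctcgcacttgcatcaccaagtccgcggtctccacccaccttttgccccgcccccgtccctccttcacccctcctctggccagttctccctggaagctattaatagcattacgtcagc
Fhl2, first start site, chr1:43196762-43197011, minus strand: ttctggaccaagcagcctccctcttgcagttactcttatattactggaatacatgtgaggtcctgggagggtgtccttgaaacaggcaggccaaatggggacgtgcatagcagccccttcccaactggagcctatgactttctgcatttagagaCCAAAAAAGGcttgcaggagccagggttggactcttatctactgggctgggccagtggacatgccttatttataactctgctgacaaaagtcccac
Fhl2, second start site, chr1:43163962-43164211, minus strand: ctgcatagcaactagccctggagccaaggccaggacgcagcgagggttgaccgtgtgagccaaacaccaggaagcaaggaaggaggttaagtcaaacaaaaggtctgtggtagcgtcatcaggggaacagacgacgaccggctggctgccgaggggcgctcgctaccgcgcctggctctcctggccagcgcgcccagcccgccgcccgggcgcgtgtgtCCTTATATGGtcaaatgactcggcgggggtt
Fgf4, chr7:144861136-144861385, plus strand: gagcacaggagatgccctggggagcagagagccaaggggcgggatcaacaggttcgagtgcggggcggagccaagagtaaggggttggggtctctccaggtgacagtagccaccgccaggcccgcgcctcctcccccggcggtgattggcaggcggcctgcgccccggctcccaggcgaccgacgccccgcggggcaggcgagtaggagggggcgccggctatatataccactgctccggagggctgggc
Nfkbid, second start site, chr7:30422156-30422405, plus strand: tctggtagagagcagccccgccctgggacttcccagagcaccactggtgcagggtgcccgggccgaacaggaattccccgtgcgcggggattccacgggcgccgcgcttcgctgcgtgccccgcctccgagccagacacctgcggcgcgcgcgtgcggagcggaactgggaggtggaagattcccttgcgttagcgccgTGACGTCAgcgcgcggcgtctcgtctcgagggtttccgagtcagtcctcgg
Both Fhl2 start sites hold a CArG box, 96 to 87 and 31 to 22 bases before the start, and the second Nfkbid start site holds a CRE, 51 to 44 bases before it. The other Nfkbid start sites in the table hold none of the 4 motifs. Atf3 and Fgf4 hold none of the 4 motifs in this window. Of the 12 rises named at 30 min 10 matched the promoter table, and 1 (Fhl2) held a CArG box and none a CRE, an AP-1 or an EGR site. Counted likewise by gene, over any start site, 1.62% of 27025 genes hold a CArG box, 1.77% a CRE, 7.82% an AP-1 site and 5.33% an EGR site. By promoter the shares of 32851 are 1.47%, 1.55%, 6.75% and 4.7%.

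Of the 12 largest rises at 30 min 8 were also among the 12 largest at 1 h. Both rankings are differences from the same BRM014 1 h libraries, so this overlap is not counted as evidence. Of the 12 largest rises at 30 min 11 held in each of the 4 fits that left out a library, and so did 11 of the 12 at 1 h. Plat, the tissue plasminogen activator, had 20.1 and 21.9 CPM at washout 30 min, 21.4 and 24.1 at washout 1 h, 11.8 and 11.01 at BRM014 1 h and 12.2 and 12.3 in DMSO (0.88 ± 0.13, adjusted p = 8.32e-05, at 30 min). Hs3st1, which sulfates heparan chains, had 46.9 and 46.7 CPM at washout 30 min, 52.5 and 49.7 at washout 1 h, 27.9 and 26.1 at BRM014 1 h and 30.3 and 28.1 in DMSO (0.80 ± 0.09, adjusted p = 1.96e-06, at 30 min). The washed libraries of both genes lay above BRM014 1 h and DMSO alike, which differed from each other by -0.10 ± 0.14 for Plat and -0.11 ± 0.09 for Hs3st1, neither called. Hdc, the histamine-forming decarboxylase, was higher by 0.96 ± 0.14 at 30 min and 0.99 ± 0.14 at 1 h. Tfec, a transcription factor of the MiT family, was higher by 0.89 ± 0.15 at 30 min and 1.01 ± 0.15 at 1 h. Pxdc1 was higher by 0.85 ± 0.15 at 30 min and 1.08 ± 0.14 at 1 h. Klb, the FGF co-receptor beta-Klotho, had 23.8 and 22.6 CPM at washout 30 min, 28.01 and 28.1 at washout 1 h, 14.8 and 13.5 at BRM014 1 h and 14.6 and 14.9 in DMSO. At BRM014 3 h it had 22.5 and 25.1 CPM. Cxcl16, a membrane-bound chemokine, had 14.3 and 16.2 CPM at washout 30 min, 18.01 and 17.5 at washout 1 h, 9.01 and 8.47 at BRM014 1 h and 13.4 and 12.8 in DMSO. It was lower than DMSO at the end of BRM014 (-0.58 ± 0.12, adjusted p = 0.0178) and above DMSO after 1 h of washout (0.44 ± 0.12, adjusted p = 0.017). Wnt11, a secreted Wnt ligand and the second largest named rise at 30 min, had 6.32 and 8.63 CPM at washout 30 min against 4.60 and 2.92 at BRM014 1 h, and was called in 2 of the 4 fits. P4ha1 and P4ha2, the prolyl hydroxylases that mature collagen, were higher at 30 min by 0.63 ± 0.06 and 0.66 ± 0.07. They were the 2 members of the hypoxia and glycolysis list called at both times.

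Several genes that differed between BRM014 1 h and DMSO lay nearer to their DMSO level after washing. With the inactive analog for 1 h in place of DMSO 20 genes differed at BRM014 1 h, and 11 of these were among the 75 called against DMSO. For the genes of this paragraph and the next the comparison with the analog is not given. Over all genes 3.02% were higher at washout 1 h than at BRM014 1 h. The comparisons with BRM014 1 h and of BRM014 1 h with DMSO share libraries, so the values of all groups are set side by side and the contrary directions are not counted as evidence. Zfp819, a KRAB zinc finger gene, had 27.3 and 28.1 CPM at washout 30 min, 29.1 and 30.2 at washout 1 h, 16.5 and 15.96 at BRM014 1 h and 29.2 and 30.9 in DMSO. At 30 min it differed from DMSO by -0.12 ± 0.09, adjusted p = 0.496, which did not pass the test, while cells kept in BRM014 for 3 h had 8.82 and 10.7 CPM. Ccno, an atypical cyclin of multiciliated cells, was lower at washout 30 min than at BRM014 1 h (-0.73 ± 0.15, adjusted p = 0.00275) and did not pass the test against DMSO at either time (0.18 ± 0.16, adjusted p = 0.565, at 30 min; 0.42 ± 0.16, adjusted p = 0.103, at 1 h). Fgf4, the main autocrine FGF of these cells and a target of Oct4 and Sox2, took longer. It had 246 and 248.6 CPM at washout 30 min, 351 and 359.5 at washout 1 h, 217 and 237 at BRM014 1 h and 346 and 352 in DMSO. At BRM014 3 h it had 171 and 171 CPM. Against DMSO it was lower at 30 min (-0.49 ± 0.06, adjusted p = 2.84e-06) and not at 1 h (0.03 ± 0.06, adjusted p = 0.838), and it was higher at 1 h than at 30 min (0.52 ± 0.06, adjusted p = 4.24e-06). Fgf15, another ligand of the family, had 11.2 and 10.1 CPM at washout 30 min, 12.6 and 13.1 at washout 1 h, 9.43 and 9.38 at BRM014 1 h and 17.3 and 16.5 in DMSO. It was still below DMSO at 1 h (-0.39 ± 0.11, adjusted p = 0.0285), a call that no fit with a library left out kept. Of 6 FGF ligand genes none was called at 30 min against BRM014 1 h, and Fgf4 and Fgf15 were higher at 1 h (1 of them in each fit that left out a library).

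In the ERK pathway, which FGF ligands activate, 2 feedback genes of 12 tested, Dusp6 and Spry4, were lower after washout than at BRM014 1 h. Over all genes 3.01% were lower and 2.88% higher at 30 min, and 0.959% were lower at 1 h. Dusp6, the phosphatase that switches ERK off, had 208 and 223 CPM at washout 30 min, 179 and 186 at washout 1 h, 248 and 259 at BRM014 1 h and 169 and 168 in DMSO. It was higher at BRM014 1 h than in DMSO (0.59 ± 0.06, adjusted p = 1.45e-07), and it stood 0.35 ± 0.06 above DMSO at 30 min (adjusted p = 2.01e-04) and 0.12 ± 0.06 at 1 h (adjusted p = 0.207). Spry4, an inhibitor of receptor signalling, had 218 and 159 CPM at washout 30 min, where the libraries were far apart, 147 and 164 at washout 1 h, 247 and 289.9 at BRM014 1 h and 183 and 171 in DMSO. It was lower than at BRM014 1 h after 1 h of washout (-0.79 ± 0.13, adjusted p = 0.00231) in each fit that left out a library, while its difference between BRM014 1 h and DMSO did not pass the test (0.60 ± 0.13, adjusted p = 0.0598). These 2 were lower than at BRM014 1 h at both times, and Dusp4 was higher at 30 min (0.32 ± 0.10). The median of the 12 was -0.09 at 30 min and -0.03 at 1 h. At 1 h the calls of Dusp6 and Spry4 held in each of the 4 fits. At 30 min each held in 2 of 4, and without replicate 2 of washout 30 min 1 member of the list was lower and none higher.

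Other genes that differed between BRM014 1 h and DMSO were still away from DMSO after washing. Trib1, a pseudokinase, had 15.1 and 12.04 CPM at washout 30 min, 17.1 and 15.5 at washout 1 h, 10.3 and 11.7 at BRM014 1 h and 19.7 and 20.5 in DMSO. It was higher at washout 1 h than at BRM014 1 h (0.57 ± 0.13, adjusted p = 0.00656). All washed libraries of Trib1 lay below DMSO, but no test of that difference is given here. Hes1, the Notch effector, had 35.96 and 36.02 CPM at washout 30 min, 34.6 and 32.1 at washout 1 h, 31.04 and 26.5 at BRM014 1 h and 50.6 and 53.9 in DMSO. It was still below DMSO at washout 1 h (-0.65 ± 0.09, adjusted p = 1.29e-05). The inactive analog also had less Hes1 than DMSO, at 36.9 and 38.6 CPM. Tmem44, a membrane protein gene, had 10.5 and 8.23 CPM at washout 30 min and 11.1 and 8.36 at washout 1 h, against 10.6 and 10.1 at BRM014 1 h, 10.9 and 13.3 CPM with the analog and 18.6 and 19.3 in DMSO. Nodal, a TGF-beta ligand of the epiblast, had 154 and 175 CPM at washout 30 min, 178 and 156 at washout 1 h, 175 and 168 at BRM014 1 h and 123 and 124 in DMSO. The 6 libraries of cells that met BRM014 lay above DMSO (0.43 ± 0.07, adjusted p = 9.07e-05, at washout 1 h against DMSO). Vgll3, a TEAD cofactor and the largest named rise of BRM014 1 h against DMSO, had 13.6 and 12.6 CPM at washout 30 min, 16.1 and 16.99 at washout 1 h, 17.3 and 20.9 at BRM014 1 h and 8.87 and 9.59 in DMSO. It was still above DMSO at washout 1 h (0.84 ± 0.12, adjusted p = 1.59e-05), but far under the 40.6 and 42.9 CPM of 3 h in the compound. Adamts1, a matrix protease, was still above DMSO at both times (0.45 ± 0.09 at 30 min and 0.33 ± 0.09 at 1 h).

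**Figure D3:**
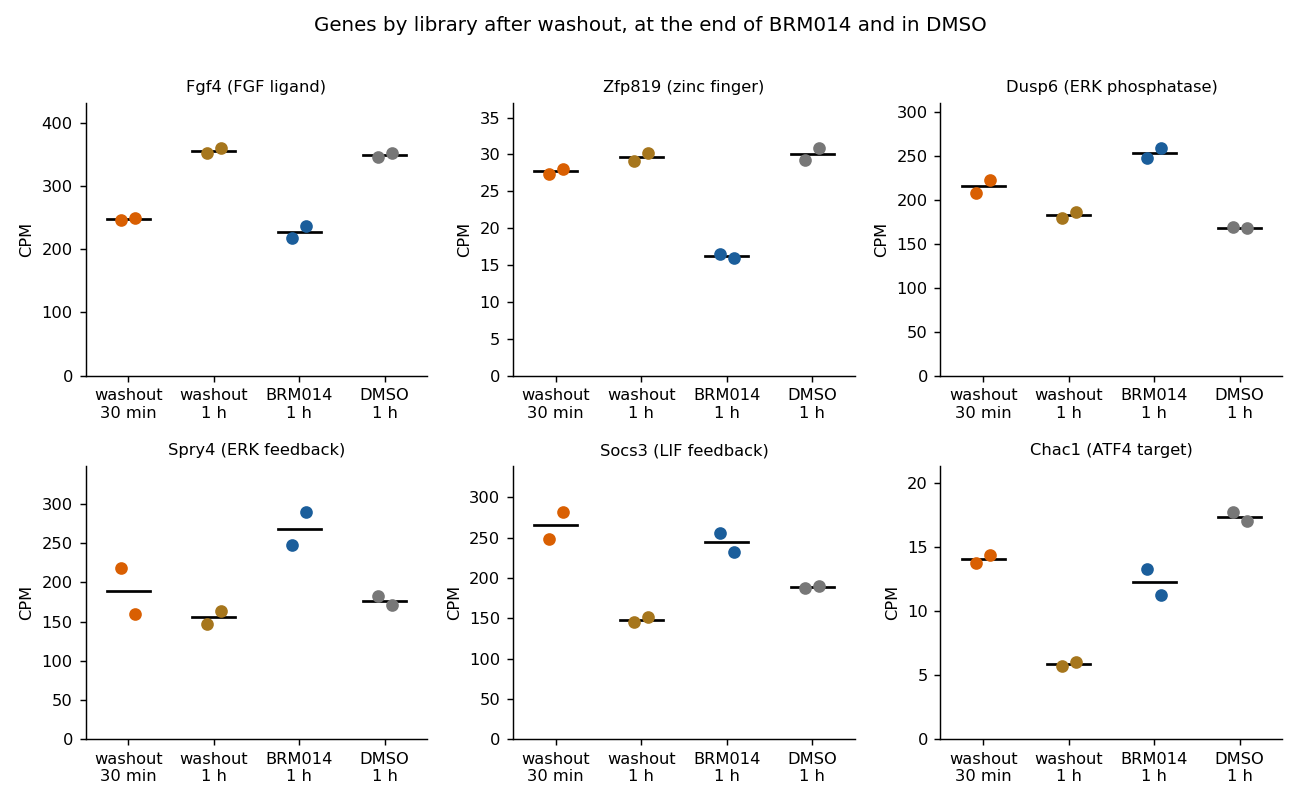
CPM (y axis) of Fgf4, Zfp819, Dusp6, Spry4, Socs3 and Chac1 in each of 2 libraries per group (points; lines are means). Zfp819 is near its DMSO level by 30 min and Fgf4 by 1 h, with 351 and 359.5 CPM at washout 1 h against 346 and 352 in DMSO, while Chac1 is lowest at washout 1 h.

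The washout times were compared directly: 142 of 12517 genes (1.13%) differed, 99 higher (0.791%) and 43 lower (0.344%) at 1 h than at 30 min. This count rested on single libraries: it was 7 without replicate 2 of washout 30 min, 11 without replicate 2 of washout 1 h, 245 without replicate 1 of washout 1 h and 701 without replicate 1 of washout 30 min. Nfkbid, an atypical nuclear inhibitor of NF-kB, had 9.19 and 8.27 CPM at washout 1 h, 4.56 and 4.29 at washout 30 min, 5.48 and 6.02 at BRM014 1 h and 11.1 and 13.3 in DMSO. The analog gave 7.59 and 6.48 CPM. It was the largest named rise between the times (0.98 ± 0.19, adjusted p = 0.00831), and the call held in 2 of 4 fits. Zfp296, a zinc finger gene of pluripotent cells, was lowest at washout 30 min: it had 77.9 and 67.1 CPM at washout 1 h and 46.5 and 41.6 at washout 30 min, against 82.9 and 79.5 at BRM014 1 h and 77.02 and 80.1 in DMSO. Its difference from BRM014 1 h at 30 min (-0.88 ± 0.12, adjusted p = 1.22e-04) held in each fit that left out a library. Chac1, a glutathione-degrading target of the ATF4 stress pathway, fell furthest, to 5.69 and 6.04 CPM at washout 1 h, against 13.8 and 14.3 at washout 30 min, 13.3 and 11.3 at BRM014 1 h and 17.7 and 16.98 in DMSO (-1.26 ± 0.15, adjusted p = 3.13e-05, at 1 h against 30 min). Cells kept in BRM014 for 3 h had 3.15 and 2.10 CPM, still less than at washout 1 h. Trib3, another ATF4 target, had 42.7 and 43.01 CPM at washout 1 h, 51.9 and 57.6 at washout 30 min, 54.8 and 52.9 at BRM014 1 h and 59.4 and 63.4 in DMSO (-0.52 ± 0.08, adjusted p = 5.81e-05, at washout 1 h against DMSO). These 2 were the only members of the ATF4 list called against BRM014 1 h at 1 h, of 11 tested, and none was called at 30 min. The share of all genes lower than at BRM014 1 h was 0.959% at washout 1 h. The call of Trib3 against BRM014 1 h held in none of the 4 fits, and that against DMSO in all 4.

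Socs3, the feedback inhibitor of LIF and STAT3 signalling, was above its DMSO level at 30 min and below it at 1 h (0.49 ± 0.08, adjusted p = 7.88e-04, at 30 min, and -0.35 ± 0.09, adjusted p = 0.0103, at 1 h). It had 145 and 151 CPM at washout 1 h, 248 and 282 at washout 30 min, 256 and 232 at BRM014 1 h and 188 and 190.2 in DMSO. The difference between the times was -0.84 ± 0.09, adjusted p = 4.24e-06, and it held in each of the 4 fits, as did the call above DMSO, whereas the call below DMSO held in none. The analog had 223 and 221 CPM and BRM014 3 h 172 and 149 CPM. Gbx2, a STAT3 target of naive cells, had 90 and 107 CPM at washout 1 h, 119 and 119.6 at washout 30 min, 131 and 140.4 at BRM014 1 h and 141 and 140.1 in DMSO (-0.51 ± 0.09, adjusted p = 8.06e-04, at washout 1 h against DMSO). Of 9 LIF and STAT3 targets tested these 2 were lower than at BRM014 1 h at washout 1 h and none was called at 30 min, and the call of Gbx2 held in 2 of 4 fits. The share of all genes lower than at BRM014 1 h was 0.959% at washout 1 h. E2f2, a cell cycle factor, had 26.8 and 28.1 CPM at washout 1 h, 42.2 and 41.8 at washout 30 min, 31.6 and 33.9 at BRM014 1 h and 40.7 and 44.3 in DMSO. At BRM014 3 h it had 19.3 and 19.6 CPM. It differed from DMSO by -0.02 ± 0.08 at 30 min and was below it at 1 h (-0.63 ± 0.08, adjusted p = 1.24e-05).

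The recovery was also followed in genes chosen without the 8 libraries, by their change between BRM014 3 h and the inactive analog for 1 h (called and at least 2-fold; 20.2% of genes were called in that contrast, which chose the genes and is not itself a result). The 315 genes that were lower at 3 h had a median log2 level over DMSO of -0.15 at washout 30 min (-0.15 and -0.16 by library), -0.31 at washout 1 h (-0.31 in both libraries), -0.23 at BRM014 1 h (-0.22 and -0.24) and -1.27 at BRM014 3 h (-1.30 and -1.24). They were thus closest to DMSO at 30 min of washout, and after 1 h of washout they were no closer than at the end of the treatment. The 71 genes that were higher at 3 h had medians of 0.18 at washout 30 min (0.16 and 0.19), 0.36 at washout 1 h (0.30 and 0.42), 0.24 at BRM014 1 h (0.27 and 0.21) and 1.10 at BRM014 3 h. The genes were chosen for their change at 3 h, so the 3 h medians are far from DMSO by the choice. No distance from the 3 h level is read as a result. With genes chosen by BRM014 3 h against DMSO 24 h the medians were -0.22 at washout 30 min and -0.23 at BRM014 1 h for the lower genes, and 0.098 and 0.095 for the higher genes. The gap between washout 30 min and BRM014 1 h thus depended on the choice of genes, while washout 1 h lay further from DMSO than BRM014 1 h under each choice. Of the 315 genes 13 (4.13%) were higher and 1 (0.317%) lower at washout 30 min than at BRM014 1 h, against 2.88% and 3.01% of all genes. At washout 1 h 8 (2.54%) were higher and 7 (2.22%) lower than at BRM014 1 h, against 3.02% and 0.959% of all genes. Against DMSO 20 of the 315 were lower at washout 30 min, 49 at washout 1 h and 15 at BRM014 1 h (6.35%, 15.6% and 4.76%, against 2.68%, 3.15% and 0.383% of all genes), and none was higher in any of the 3. Of the 71 genes 3 (4.23%) were higher and 5 (7.04%) lower at washout 30 min than at BRM014 1 h, and 10 were higher and 2 lower at washout 1 h, to be read against 2.88%, 3.01%, 3.02% and 0.959% of all genes in the same order. Without replicate 2 of washout 30 min, 2 of the 315 were higher and none lower than at BRM014 1 h, 7 were lower and 1 higher than in DMSO, and 2 of the 71 were higher and 1 lower than at BRM014 1 h. At washout 1 h the fits that left out a library gave 14 to 33 of the 315 lower than in DMSO and 4 to 8 of the 71 higher than at BRM014 1 h.

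**Figure D4:**
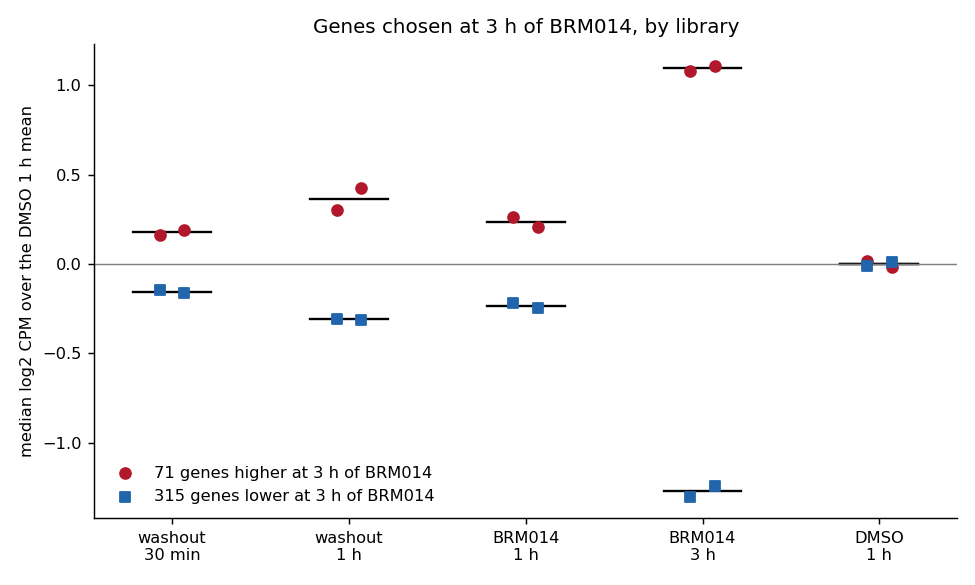
Median log2 CPM over the mean of DMSO 1 h (y axis) of 315 genes lower (squares) and 71 genes higher (circles) at 3 h of BRM014 than with the inactive analog, in each of 2 libraries per group (lines are means of the 2). At washout 1 h the medians are -0.31 and 0.36, on the far side of BRM014 1 h from DMSO. The genes were chosen for their change at BRM014 3 h, so that group lies furthest out by the choice.

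The falls at 30 min rested more on single libraries than the rises. Of the 12 largest named falls 3 held in each of the 4 fits that left out a library: Slc2a4rg-ps, Zfp296 and Zswim9. Slc2a4rg-ps, a pseudogene whose reads may be shared with its parent gene, had 6.55 and 5.09 CPM at washout 30 min, 6.45 and 4.52 at washout 1 h, 10.8 and 11.96 at BRM014 1 h and 10.9 and 11.9 in DMSO. Zswim9 had 9.91 and 8.14 CPM at washout 30 min, 10.9 and 9.84 at washout 1 h, 14.96 and 15.7 at BRM014 1 h and 13.8 and 15.02 in DMSO (-0.77 ± 0.12, adjusted p = 1.78e-04, at 30 min). By contrast Rnf5, a ubiquitin ligase of the endoplasmic reticulum, had 9.22 and 5.09 CPM at washout 30 min against 12.4 and 14.97 at BRM014 1 h, with replicate 2 of each group at the extremes. Cbll1, a ubiquitin ligase that also serves the RNA methylation machinery, had 19.96 and 10.9 CPM at washout 30 min against 25.3 and 32.9 at BRM014 1 h. Scamp3, a vesicle membrane protein, had 36.4 and 22 CPM at washout 30 min against 48.9 and 56.8 at BRM014 1 h. The calls of these 3 genes held in 2 of the 4 fits each. At washout 1 h 4 of the 12 largest falls held in each fit: Chac1, Slc2a4rg-ps, Spry4 and Socs3.

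Other lists had few members called against BRM014 1 h. Over all genes 2.88% were higher and 3.01% lower at 30 min, and 3.02% were higher and 0.959% lower at 1 h. With so few members tested, counts of 1 or 2 beside these shares are not read as a result about a list. None of 12 circadian clock genes was called at 30 min and 1 (Nr1d2) was higher at 1 h. None of 11 Wnt targets was called at 30 min and 1 (Dkk1) was higher at 1 h. Of 8 heat shock genes 1 (Hsph1) was lower at 30 min, not without replicate 2 of that group, and none was called at 1 h. Of 12 NF-kB targets Plaur, the urokinase receptor, was higher at both times (0.55 ± 0.08 at 30 min and 0.67 ± 0.08 at 1 h). Of 9 MYC and ribosome biogenesis genes Myc and Mycn were lower at 30 min (Mycn alone without replicate 2 of that group) and Myc alone at 1 h. Of 21 SWI/SNF subunit genes none was called at 30 min, where 9 had an unadjusted p under 0.05 and DESeq2 called 1, and Smarca2 was higher at 1 h. Of 8 BMP targets Bmp4 and Bambi were higher at 30 min (neither without its replicate 2) and Bambi at 1 h. Of 7 Nodal and activin genes Inhbb was higher at 30 min (0.28 ± 0.07), again not without that library. Of 13 genes that brake growth in response to glucose or FOXO factors Pnrc1 was higher and Txnip lower at 1 h. Of 4 NRF2 targets Hmox1 was higher at 1 h (0.39 ± 0.07). Where edgeR called no member at 30 min, an unadjusted p under 0.05 was found for 2 FGF, 2 Wnt, 2 LIF, 1 ATF4, 1 NRF2, 3 growth brake and 3 clock genes, and DESeq2 called 1 ATF4, 1 NRF2 and 1 clock gene and none of the FGF, Wnt, LIF and growth brake genes. At 1 h such a p was found for 2 Nodal genes and 1 heat shock gene, and DESeq2 called 1 heat shock gene and no Nodal gene.

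**Figure D5:**
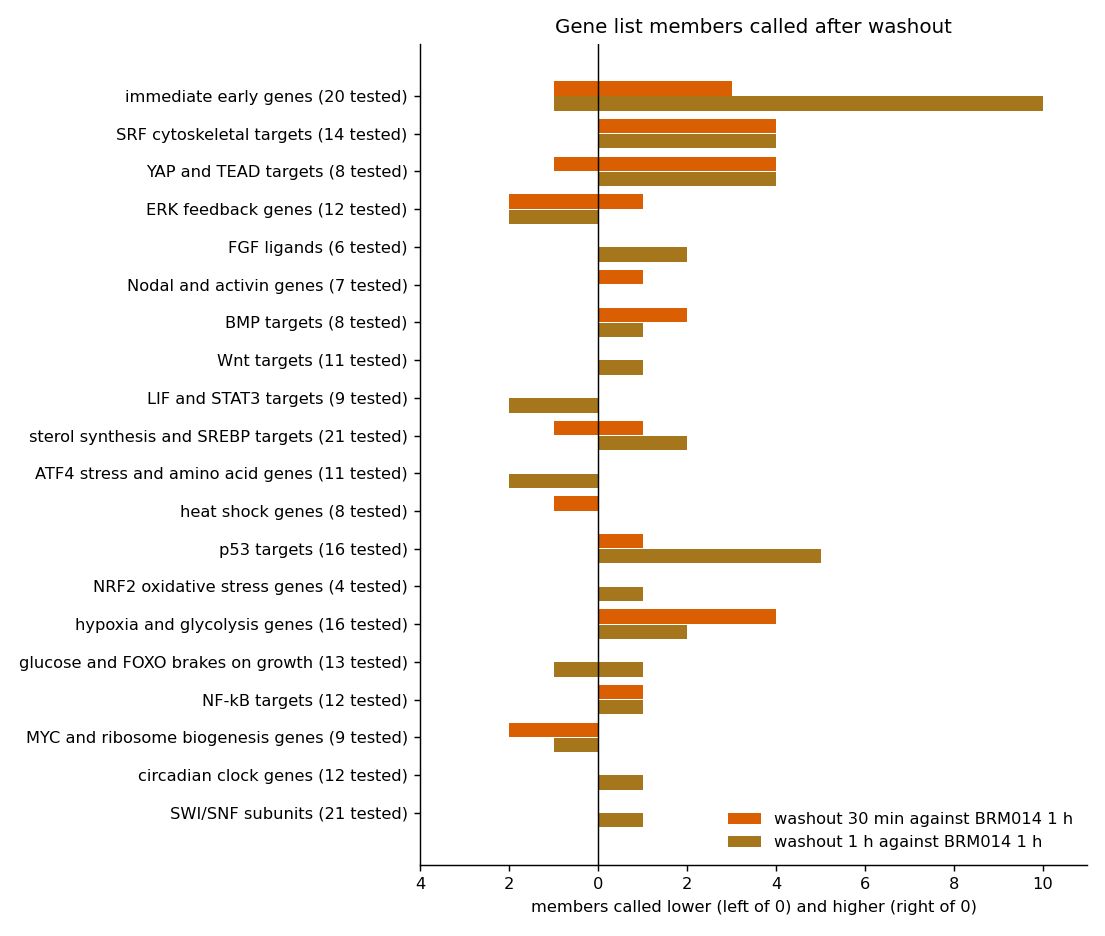
Number of members called lower (left of 0) and higher (right of 0) than at BRM014 1 h (x axis) for each gene list with at least 1 call, at washout 30 min (upper bar) and washout 1 h (lower bar), with the number tested beside each name (y axis). Immediate early genes have the largest count, 10 higher of 20 tested at washout 1 h. The lists differ in length and were chosen with earlier results of these data known, so the counts only describe them.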

How the data were processed

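The authors deposited stranded total RNA counts per gene with no normalization, 1 column per library. The tools named in the submitters' processing notes are bcl2fastq 2.17 and STAR, with build GRCm38 (mm10). Each gene's exonic width is also in the deposited table. How reads were assigned to genes is not given in the sources used here. From these counts a single edgeR 4.0.16 model (R 4.3.3) was fitted to the 26 libraries (13 groups of 2) of experimental batch 2450. These libraries share 1 estimate of the spread (biological coefficient of variation 6.15%, 13 residual degrees of freedom). The groups were not equally spread. Chi-square per degree of freedom between the 2 libraries was 13.6 at washout 30 min, 8.33 at washout 1 h, 9.27 at BRM014 1 h and 2.04 in DMSO. For the more widely spread groups the adjusted p-values may be too small. Low genes were dropped with filterByExpr on the groups (at least 10 counts in the smallest group, 15 in all), followed by TMM scaling and robust quasi-likelihood F-tests, with Benjamini-Hochberg adjustment over 12517 genes in each of 6 comparisons. A total of 0 columns were left unmapped. Log2 CPM used a prior count of 2.

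The members and the 22 gene lists were chosen with earlier results of these data known. Named genes were up to 12 rises and 12 falls per main comparison (6 and 6 in the others) with the largest log2 change among genes called, with a mean log2 CPM of at least 2, libraries of the groups not overlapping, and predicted gene models left out. To these came at most 4 called members of each list with the smallest adjusted p, and Smarca4, Smarca2, Fgf4, Dusp6, Vgll3 and Nfkbid. Basement membrane genes were chosen after their values were seen, and markers, 2-fold counts and the genes chosen at 3 h were given the leave-one-out fits after that too. Counts were simulated for washout 30 min against BRM014 1 h (12147 genes). Of genes changed by 0.5 log2 72 of 100 were recovered, and of those changed by 1 log2 99 of 100. Unchanged genes made up 2.29% of calls. The simulated libraries varied independently, with the same spread of a gene in every group. The real libraries did not, so these rates need not carry over to them. Alternatives were DESeq2 1.42.0 (test and size factors), no low-count filter, fits of fewer libraries, a replicate block, other references and leaving out each library. Promoter sequences are RefSeq's (GRCm38.p6). Values of some genes are not reported here.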

Additional observations from a re-analysis of the deposited data

Results flagged for a closer look

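The washout times differed from each other in 142 genes, 99 higher and 43 lower at washout 1 h than at washout 30 min, by edgeR's quasi-likelihood test of that difference at a Benjamini-Hochberg adjusted p under 0.05. The count was 7 without replicate 2 of washout 30 min and 11 without replicate 2 of washout 1 h, and 701 without replicate 1 of washout 30 min. The same difference is a difference between the effects of the 2 washout times against BRM014 1 h. The genes named here that were higher at washout 1 h were Nfkbid (log2 fold change 0.98), Rasl11b, a small GTPase (0.75), Zfp296 (0.72), Cox6b2, a testis form of a cytochrome oxidase subunit (0.70), and Zic5, a zinc finger factor (0.69). The genes named here that were lower at washout 1 h were Chac1 (-1.26), Socs3 (-0.84), Zfp454, a zinc finger gene (-0.69), Atpsckmt, a mitochondrial methyltransferase (-0.62), E2f2 (-0.61) and Pet100, a chaperone of cytochrome oxidase (-0.54). None of these rises and 3 of these 6 falls (Chac1, Socs3 and E2f2) held in each of the 4 fits that left out a library.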

How the results depend on the processing

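Leaving out 1 library at a time gave 162 to 1336 genes at washout 30 min against BRM014 1 h (162 without replicate 2 and 1336 without replicate 1 of washout 30 min, 187 and 719 without replicate 2 and replicate 1 of BRM014 1 h), 229 to 403 at washout 1 h against BRM014 1 h, 7 to 701 at washout 1 h against washout 30 min, 163 to 1080 at washout 30 min against DMSO, 345 to 899 at washout 1 h against DMSO and 17 to 45 at BRM014 1 h against DMSO. Here the lone library is assumed to vary like the other groups. In the same order of comparisons, the 8 libraries alone gave 352, 249, 27, 302, 560 and 26 genes, and fits of the 2 groups alone gave 112, 198, 31, 158, 1304 and 49. With no low-count filter there were 1110, 599, 515, 994, 1113 and 154 genes, and with DESeq2 892, 521, 285, 762, 1039 and 89. DESeq2's size factors gave 758, 502, 145, 712, 1060 and 76. With the inactive analog for 1 h in place of DMSO 1088 genes differed at washout 30 min, 959 at washout 1 h and 20 at BRM014 1 h, and against the mean of BRM014 1 h and 3 h 2132 differed at washout 30 min and 1076 at washout 1 h. The cause was not tested. The replicate numbers gave no common pairing of the samples. Replicate 1 minus replicate 2 correlated from -0.60 (washout 30 min and BRM014 1 h) to 0.65 (washout 1 h and BRM014 1 h). Libraries of different groups thus shared some variation apart from the groups, and its source was not tested. The fit with a replicate block gave 784, 511, 161, 679, 1045 and 80 genes.

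The median course moved with the genes chosen, by BRM014 3 h against DMSO 24 h (first value) or with no fold minimum (second value): of genes higher at 3 h to 0.098 and 0.057 at washout 30 min, 0.17 and 0.12 at washout 1 h and 0.095 and 0.067 at BRM014 1 h, and of genes lower at 3 h to -0.22 and -0.083 at washout 30 min, -0.32 and -0.14 at washout 1 h and -0.094 (no fold minimum) at BRM014 1 h. Signs turned round for Id2 at washout 30 min (-0.070), Arrdc3 at washout 1 h (0.21) and Fos at BRM014 1 h (-0.026) with the analog in place of DMSO, and for Chac1 (0.051), Gbx2 (0.011) and Trib3 (0.20) at washout 1 h against the mean of BRM014 1 h and 3 h. Over all alternatives, the values of single genes were counted as the same 3384 times. This count takes in any change of sign in a gene not called in the main fit. With the direction kept, the call was lost 614 times and gained 23 times. Genes called in the main fit turned round 6 times. The median 95% interval of ± 0.15 log2 in well-expressed genes is before adjustment and is not the limit for a call. In the simulation of washout 30 min against BRM014 1 h 72 of 100 genes changed by 0.5 log2 were recovered. Its libraries varied independently, unlike the real ones.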

Other observations

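The sterol list holds genes of sterol synthesis and uptake, which the factor SREBP2 switches on when cells lack cholesterol. Of 21 tested, 10 were higher at washout 1 h than in DMSO and none lower, and 5 were higher at washout 30 min, of which none held without replicate 2 of that group. The list's median log2 fold change against DMSO was 0.24 at washout 1 h, 0.12 at washout 30 min and already 0.16 at BRM014 1 h, before any wash, where Cyp51 and Msmo1 were higher. Of all genes 4.95% were higher than DMSO at washout 1 h, 2.68% at washout 30 min and 0.216% at BRM014 1 h. Insig1, which holds SREBP back when sterols are plentiful, had 155 and 164 CPM at washout 1 h, 127 and 139 at washout 30 min, 115 and 115 at BRM014 1 h and 104 and 107 in DMSO. It was higher at washout 1 h than in DMSO (0.59 ± 0.06, adjusted p = 3.52e-07), by edgeR's quasi-likelihood test with Benjamini-Hochberg adjustment, in each of the 4 fits that left out a library. Cyp51, an enzyme of cholesterol synthesis, had 166 and 173 CPM at washout 1 h, 139 and 144 at washout 30 min, 152 and 143 at BRM014 1 h and 122 and 121 in DMSO. It was higher at washout 1 h than in DMSO by 0.48 ± 0.06, adjusted p = 6.50e-06. Against BRM014 1 h 2 members of the list were higher at washout 1 h, where 3.02% of all genes were. The shares over all genes at 30 min were 2.88% higher and 3.01% lower. At 30 min Insig1 was higher and Dhcr7 lower, neither without replicate 2 of that group.

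Of 16 p53 targets 5 were higher at washout 1 h than at BRM014 1 h and none lower (1 to 4 higher when a library was left out), against 3.02% of all genes higher. At 30 min 1, Plk2, was higher, and none without replicate 2 of that group. Plk2, a stress-induced kinase, had 140.0 and 143 CPM at washout 1 h, 113 and 119 at washout 30 min, 98.1 and 95.6 at BRM014 1 h and 95.2 and 98.3 in DMSO (0.55 ± 0.06, adjusted p = 8.71e-07, at washout 1 h against BRM014 1 h). The classical targets Mdm2 and Ccng1 were higher by 0.21 ± 0.06 and 0.24 ± 0.06. Cdkn1a, another target, was not called against BRM014 1 h at either time. Against DMSO 2 were higher (Ccng1 and Plk2) and 2 lower (Cdkn1a and Gdf15) at washout 30 min. All of these calls rested on replicate 2 of washout 30 min. At washout 1 h 3 were higher than DMSO and 1, Ptprv, was lower. The shares over all genes against DMSO were 2.68% higher and 2.68% lower at 30 min, and 4.95% and 3.15% at 1 h. Of 16 hypoxia and glycolysis genes 4 were higher than at BRM014 1 h at washout 30 min (P4ha1, P4ha2, Vegfa and Pgk1). Fewer were higher at 30 min without replicate 2 of that group. At washout 1 h 2 were higher (P4ha1 and P4ha2), and none was lower at either time. Over all genes the shares higher than at BRM014 1 h were 2.88% at 30 min and 3.02% at 1 h. Vegfa, the growth factor of blood vessels, had 67.5 and 65.1 CPM at washout 30 min, 50.4 and 50.4 at washout 1 h, 51.5 and 48.9 at BRM014 1 h and 66.3 and 67.6 in DMSO. It was at -0.01 ± 0.08 against DMSO at washout 30 min and lower than DMSO at washout 1 h (-0.41 ± 0.08, adjusted p = 8.37e-04).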
